A study of Sus scrofa with 12 samples.

Results

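The genes described here encode angiogenic and other peptide growth factors, their receptors and the proteins that bind insulin-like growth factors. They were chosen by symbol, with earlier results of these data known: VEGF, FGF, FGFR, PDGF, IGF1, IGF2 and their receptors, IGFBP, ANGPT and ANGPTL names, EGFR, AREG, HBEGF, FLT1 and FLT4, together with HGF, MET, KDR, TEK and NRG1. The mRNA table held 57 such genes among 13363 distinct symbols. They were 26 genes listed as ligands, 14 receptors, 8 IGF binding proteins, 7 angiopoietin-like genes and 2 genes, PDGFRL and FGFR1OP2, that match by name and were placed in none of these roles. No entry was found for 15 further ligand symbols sought, among them FGF2, FGF7, VEGFB, PDGFB and EREG. The same held for 1 receptor symbol, FGFRL1, and 1 angiopoietin-like symbol. Levels of these genes could not be read here.

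Mesenchymal stromal/stem cells (MSCs) were grown from the abdominal fat of 3 female domestic pigs aged 3 months and were used at passage 3, after culture in a medium supplemented with platelet lysate. Extracellular vesicles (EVs), the membrane-bound particles that cells release, were pelleted by ultracentrifugation from the supernatants of those cells. mRNA was sequenced from the MSCs and the EVs, which gave 3 MSC and 3 EV libraries. The labels give replicate numbers and name no pig. An MSC and an EV library with the same number were taken to come from the same pig. The question was which mRNAs were more or less abundant in EVs than in their parent MSCs.

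Peptide growth factors are secreted ligands that act on neighbouring cells through receptor tyrosine kinases. VEGF-A drives the growth of new vessels through receptors on endothelial cells, PDGFs recruit and expand mesenchymal and mural cells, FGFs and HGF act on epithelium, endothelium and mesenchyme, and angiopoietins tune vessel stability through TEK. Adipose MSCs are known for paracrine release of such factors, and IGF binding proteins hold insulin-like growth factors outside the cell and limit their access to the IGF1 receptor.

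Each library held 10429085 to 12276855 reads counted on genes, from 25.4% to 28.2% of the library total behind the deposited RPKM (mapped reads scaled by gene length and sequencing depth). The 3 EV libraries were compared with the 3 MSC libraries by edgeR's quasi-likelihood test over 12392 entries of the table. A gene was called higher or lower in EVs at the study's thresholds, a fold change over 2 with an unadjusted p under 0.05. By this rule 5.55% of all entries were called higher in EVs and 3.57% lower. After Benjamini-Hochberg adjustment over the whole table edgeR called 0 entries, with a smallest adjusted p of 0.129, whereas 1978 entries (16.0%) had an unadjusted p under 0.05. DESeq2 called 2.09% higher and 1.5% lower after adjustment. The MSC library of pig 2 was the least similar to the others, with a mean Spearman correlation of 0.891 against 0.917 to 0.939 for the remaining libraries. Such RNA totals are relative, so that fewer transcripts of a gene per vesicle and more transcripts of other genes cannot be told apart, and neither can fewer cells of a type and less RNA per cell.

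The labelled cell type was checked against its markers. CD44, NT5E and ENG, which encode MSC surface proteins, were read in all 6 libraries, with 3603 to 10023 reads for CD44, whereas THY1 was listed at 0 in an entry that another entry covers. The 6 endothelial markers included VWF at 0, CLDN5 with 0 to 4 reads and CDH5 with no entry. Only 2 of the 6 could be tested, 1 below and 1 above 0 in log2 fold change, the latter at 0.18 (edgeR adjusted p = 0.890). PECAM1, an endothelial adhesion molecule, had 215, 111 and 114 reads in the MSCs and 78, 20 and 31 in the EVs of pigs 1, 2 and 3, and was lower in EVs by the unadjusted threshold (log2 fold change −1.71, edgeR adjusted p = 0.249). The summed level of the endothelial list was 11.1 to 18.2 CPM (counts scaled by library total and TMM normalization factor) in MSCs and 2.81 to 8.01 CPM in EVs. Of the 6 leukocyte markers, CD14 had 416 to 771 reads, CD3E was at 0 and PTPRC had 2 to 10 reads, and the list summed to 48.1 to 50.9 CPM in MSCs and 44.5 to 63.5 CPM in EVs. The platelet markers PPBP and ITGA2B were at 0 and their list stayed under 5.76 CPM. The adipocyte list stayed under 0.708 CPM in every library. Among the 6 mural markers RGS5 and DES were at 0, the list summed to 74.7 to 148 CPM in MSCs and 22.7 to 102 CPM in EVs, and ACTA2 was lower in EVs (log2 fold change −4.10, adjusted p = 0.206 without and 0.0116 with the pig as a block in edgeR).

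Among the growth factor genes 31 of 57 had enough reads to be tested, of which 13 were ligands, 10 receptors, 4 IGF binding proteins, 2 angiopoietin-like genes and 2 others. FGF1 alone was higher and PDGFA alone was lower in EVs by the unadjusted thresholds, which is 3.23% of the members tested in each direction, against 5.55% and 3.57% of all entries. After adjustment 0 members passed in edgeR without a block, where 0.0% of all entries passed in either direction. A block for the pig gave the same pair of unadjusted calls, against 8.01% of all entries higher and 5.17% lower, and 0 members after adjustment, against 0.492% and 0.605%. In DESeq2 the count after adjustment was likewise 0, with no adjusted value for IGF2R and FLT4. An unadjusted p under 0.05 was seen for 3 of the 31 (9.68%), namely FGF1, FGF10 and PDGFA. The log2 fold change was above 0 in 21 of the 31 (67.7%), against 49.1% of all entries, and its median was 0.58 for the ligands, 0.36 for the receptors, −0.077 for the IGF binding proteins and −0.34 for the angiopoietin-like genes, against −0.016 over all entries tested. These are counts and medians of genes that passed a filter on low reads, and they carry no test.

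**Figure D1:**
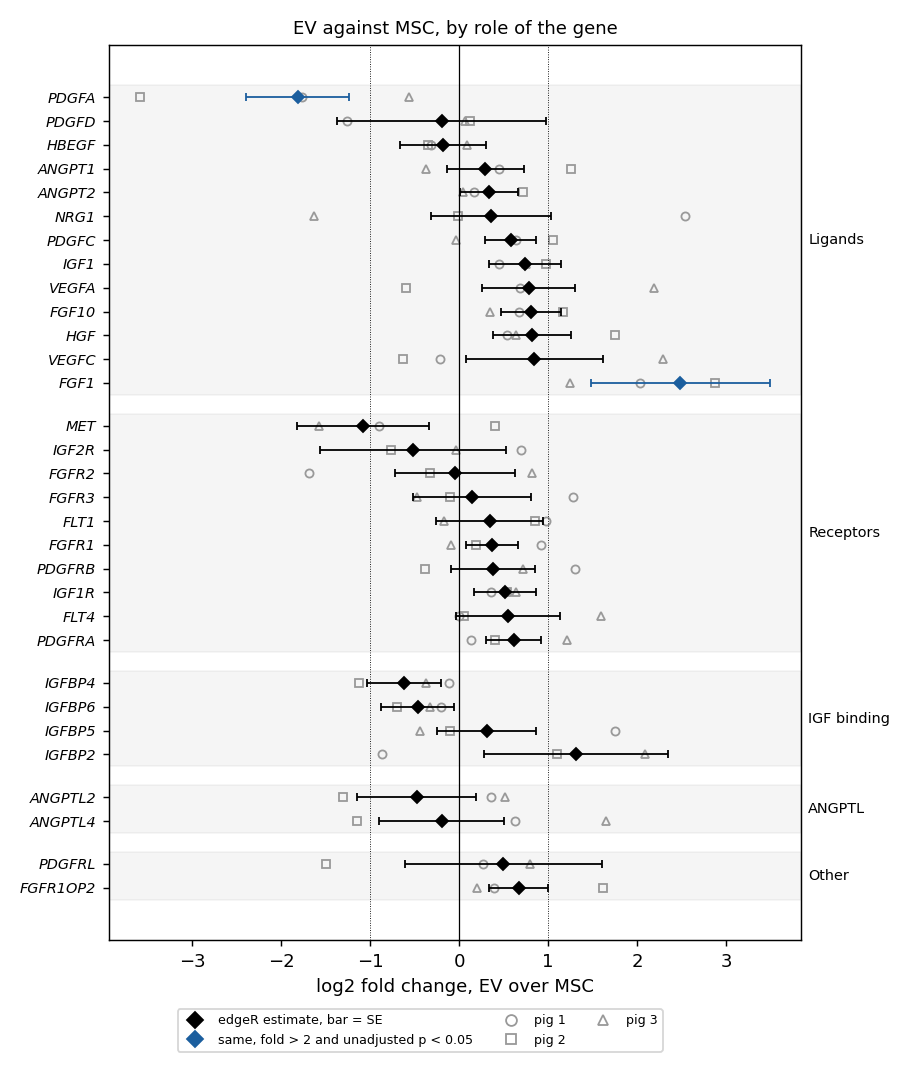
The horizontal axis gives the log2 fold change of EV over MSC for the 31 growth factor genes tested, grouped by role. Diamonds are edgeR estimates with their standard errors (n = 3 libraries a group), open symbols are the EV over MSC ratios within pigs 1, 2 and 3, and blue marks PDGFA (−1.82) and FGF1 (2.48), which alone passed a fold of 2 with an unadjusted p under 0.05.

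Of the 26 ligand genes with an entry, VEGFA had the highest level per length, at a mean of 67.9 RPKM over the 6 libraries. It lay above PDGFC in 6 of 6 libraries. PDGFC followed with 21.6 RPKM and lay above HGF in 6 of 6 libraries. HGF (10.3 RPKM), FGF10 (9.44), ANGPT1 (9.24) and PDGFD (8.44) did not keep their order, since each of these genes exceeded the next in 2 to 4 of the libraries only. IGF1 (3.83 RPKM), NRG1 (2.32), VEGFC (1.89) and PDGFA (1.75) came next, and FGF1 (0.450), HBEGF (0.362) and ANGPT2 (0.221) closed the list of ligands tested. Summed over the 26 ligand genes, the level was 102 to 118 RPKM in the MSC libraries and 145 to 208 RPKM in the EV libraries. The groups did not overlap in this sum but did without VEGFA, where the level was 42.6 to 77.2 RPKM in MSCs and 75.2 to 88.6 RPKM in EVs. A second VEGFA entry, at 0 reads, covers 0.911 of the chosen one. The same holds for ANGPT2 (0.966) and IGF1 (0.924), whereas PDGFC, HGF and FGF10 have no overlapping entry. Whether such overlaps cost reads was not tested, and the order and sums of the ligands carry this limit.

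**Figure D2:**
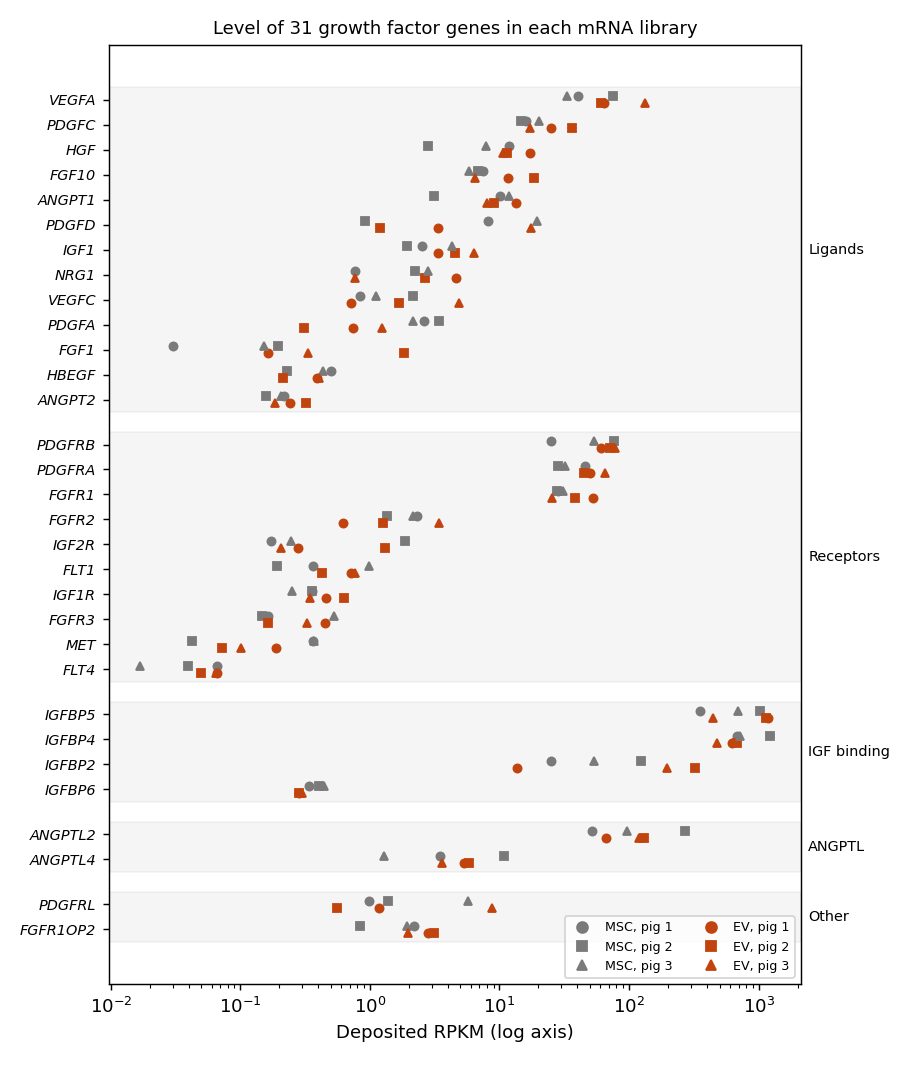
The horizontal axis gives the deposited RPKM on a log axis for the 31 genes tested, with MSC libraries in grey and EV libraries in orange and a symbol for each pig. IGFBP5, IGFBP4 and IGFBP2 held the highest means, VEGFA led the ligands and PDGFRB, PDGFRA and FGFR1 led the receptors, and the EV and MSC symbols overlapped for most genes.

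VEGFA, on chromosome 7 (44459903 to 44474467, plus strand, susScr3), encodes the principal vessel growth factor. Its reads were 3364, 6167 and 2722 in the MSCs and 4951, 5011 and 10384 in the EVs of pigs 1, 2 and 3. The EV library of pig 3 was the highest and the MSC library of pig 2 the next, so that the groups overlapped and the EV of pig 2 lay below its own MSC. The log2 fold change was 0.78 ± 0.52 (SE, 95% interval −0.43 to 1.999), with an adjusted edgeR p of 0.451 and an exact permutation p of 0.3 over the libraries. Without the MSC library of pig 2 it was 1.34 and passed the unadjusted thresholds, and without the EV library of pig 3 it was 0.17.

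PDGFC, whose product is a PDGFR-alpha ligand, had 2506, 2247 and 3107 reads in the MSCs and 3590, 5695 and 2542 in the EVs. The EVs of pigs 1 and 2 lay above all MSC libraries while the EV of pig 3 lay among them. Its log2 fold change was 0.58 (95% interval −0.092 to 1.25, edgeR adjusted p = 0.349).

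HGF, hepatocyte growth factor, the ligand of MET, had 1618, 374 and 1045 reads in the MSCs and 2160, 1545 and 1369 in the EVs. The EV library was the higher in all 3 pigs, and the groups overlapped through the MSC library of pig 1. Its log2 fold change was 0.82 (95% interval −0.20 to 1.84, edgeR adjusted p = 0.369). Without the MSC library of pig 1 it was 1.24 and passed the unadjusted thresholds, and without the MSC library of pig 2 it was 0.46.

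FGF10, a ligand of the FGFR2 IIIb receptor known from fat and limb development, had 1389, 1256 and 1070 reads in the MSCs and 2031, 3463 and 1145 in the EVs. In all 3 pigs the EV exceeded the MSC of the same animal, though the EV of pig 3 lay within the MSC range. A log2 fold change of 0.81 (95% interval 0.027 to 1.59) gave an unadjusted p under 0.05, with an adjusted p of 0.302 in edgeR, and did not reach a fold of 2. Without the EV library of pig 3 it was 1.06, past both unadjusted thresholds, and without the EV library of pig 2 it was 0.44.

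ANGPT1, which activates TEK, had 889, 273 and 1034 reads in the MSCs and 1112, 799 and 669 in the EVs. The lowest and the second highest libraries were both MSC libraries, and the log2 fold change was 0.29 (95% interval −0.71 to 1.29). ANGPT2, the context-dependent antagonist of ANGPT1, had 56, 40 and 52 reads in the MSCs and 58, 82 and 45 in the EVs. In TMM-normalized CPM every EV library lay above every MSC library, by a log2 fold change of only 0.33 (95% interval −0.43 to 1.10). In the deposited RPKM the groups overlapped, with the EV of pig 3 at 0.186 and the MSCs of pigs 1 and 3 at 0.218 and 0.206.

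PDGFA was the ligand gene with the clearest difference. It lies on chromosome 3 (154800 to 169916, minus strand) and encodes the PDGF-A chain. The MSC libraries held 146, 186 and 116 reads and the EV libraries 38, 17 and 65, so that every EV library lay below every MSC library, as in 13.6% of all entries. In scaled counts the level was 13.0 ± 4.23 CPM in MSCs and 3.70 ± 2.66 CPM in EVs (mean ± SD of 3 libraries). This was a log2 fold change of −1.82 ± 0.58 (SE, 95% interval −3.16 to −0.47), a level 3.52-fold lower in EVs. The unadjusted p was 0.0147 in edgeR, and the exact permutation p was 0.1, the smallest that 3 against 3 libraries allow. In edgeR the adjusted p was 0.249 without and 0.118 with a block for the pig, and in DESeq2 it was 0.0543. The difference was largest in pig 2, with a log2 ratio of −3.58, and smallest in pig 3, with −0.57. It passed the unadjusted thresholds in all 6 fits that left out a library, with log2 fold changes from −2.51 to −1.40, although without the EV of pig 1 or the MSC of pig 2 the p lay just under 0.05. PECAM1 and ACTA2, given above, were also called lower, as were 3.57% of all entries, and whether these and PDGFA share a source was not tested. The other endothelial marker tested, at a log2 fold change of 0.18, was not lower. The 3 mural markers tested had log2 fold changes from −4.10 to −0.35, and ACTA2 alone passed the unadjusted thresholds.

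FGF1, acidic fibroblast growth factor, which binds all FGF receptors, was the ligand gene higher in EVs. It lies on chromosome 2 (150317384 to 150418060, minus strand). The MSC libraries held 5, 32 and 25 reads and the EV libraries 25, 302 and 52. The EV of pig 2 stood far above the other 5 libraries, and the EV of pig 1 lay within the MSC range, so that the groups overlapped. Within each pig the EV was the higher, with log2 ratios of 2.03, 2.88 and 1.24. The log2 fold change was 2.48 ± 1.00 (SE, 95% interval 0.15 to 4.82), 5.59-fold, with an unadjusted p of 0.0400 and an adjusted p of 0.295 in edgeR and an exact permutation p of 0.3. Blocking by pig in edgeR gave an adjusted p of 0.0620. The call rested on single libraries. It was lost without the EV of pig 2, where the log2 fold change was 0.995, and also without the MSC of pig 1, 2 or 3, where it was 1.99, 3.05 and 2.60 with a wider spread.

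**Figure D3:**
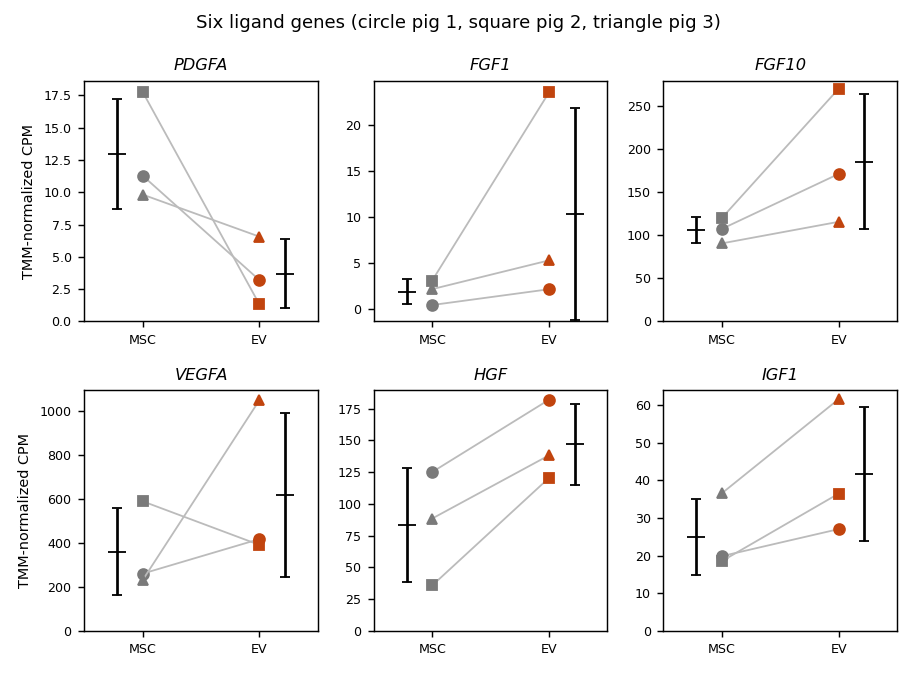
The vertical axes give TMM-normalized CPM of 6 ligand genes in MSC (grey) and EV (orange), with a line joining the libraries of each pig and bars for the mean ± SD of 3 libraries. PDGFA was lower in the EV of every pig, FGF1, FGF10, HGF and IGF1 were higher in the EV of every pig with overlapping groups, and VEGFA moved in opposite directions in pigs 2 and 3.

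IGF1, insulin-like growth factor 1, had 257, 194 and 432 reads in the MSCs and 321, 468 and 610 in the EVs. All 3 pigs had the higher level in the EV, the MSC of pig 3 lay among the EV libraries, and the log2 fold change was 0.74 (95% interval −0.20 to 1.68, edgeR adjusted p = 0.378). Without the MSC library of pig 3 it was 1.12 and passed the unadjusted thresholds, and without the EV library of pig 3 it was 0.35. IGF2, its fetal counterpart, was too low to test, with 2, 43 and 8 reads in the MSCs and 1, 4 and 9 in the EVs on a scaffold entry of 308 bases. The MSC of pig 2 held most of these reads.

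Of the other ligands tested, VEGFC and NRG1 differed in direction between pigs. VEGFC, the lymphatic vessel growth factor, had 89, 225 and 117 reads in the MSCs and 70, 177 and 486 in the EVs, and its log2 fold change of 0.84 (95% interval −0.94 to 2.63) was −0.37 without the EV of pig 3. NRG1, neuregulin 1, a ligand of ERBB receptors, had 34, 97 and 122 reads in the MSCs and 190, 118 and 32 in the EVs, with log2 ratios of 2.53, −0.010 and −1.63 in pigs 1, 2 and 3. The EV was thus far above its MSC in pig 1 and below it in pig 3. HBEGF, which activates EGFR, stayed between 14 and 33 reads in all libraries.

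Among the receptors 3 genes were abundant and the rest were low. PDGFRB had a mean of 60.9 RPKM, PDGFRA 44.3 RPKM and FGFR1 33.8 RPKM. PDGFRB exceeded PDGFRA in 5 of 6 libraries, PDGFRA exceeded FGFR1 in 5 of 6, and FGFR1 exceeded FGFR2 (1.85 RPKM) in 6 of 6. Of the 10 receptor genes tested 0 passed the unadjusted thresholds in either direction in edgeR, and 0 had an unadjusted p under 0.05 or passed after adjustment in DESeq2.

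PDGFRB, a PDGF receptor of mesenchymal and mural cells, had 3464, 10480 and 7339 reads in the MSCs and 7833, 9874 and 10114 in the EVs. The MSC of pig 1 was the lowest library and the groups overlapped. Its log2 fold change was 0.37 (95% interval −0.72 to 1.47), and it was 0.010 without that library. PDGFRA, which marks mesenchymal progenitors in fat, had 6507, 3948 and 4477 reads in the MSCs and 6547, 6375 and 8685 in the EVs. The EV was the higher in all 3 pigs, by log2 ratios of 0.13, 0.40 and 1.21, and the log2 fold change was 0.61 (95% interval −0.11 to 1.34, edgeR adjusted p = 0.355). FGFR1, the main FGF receptor of mesenchymal cells, had 6501, 6285 and 7026 reads in the MSCs and 11300, 8787 and 5524 in the EVs. In scaled counts the EVs of pigs 1 and 2 lay above all MSC libraries and the EV of pig 3 lay within the MSC range of 503 to 601 CPM, and the log2 fold change was 0.37 (95% interval −0.30 to 1.05). Summed over the 14 receptor genes the level was 103 to 137 RPKM in MSCs and 158 to 173 RPKM in EVs. These groups did not overlap in RPKM, whereas in scaled counts they did, with 1300 to 2064 CPM in MSCs and 2013 to 2493 CPM in EVs.

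FGFR2 and IGF2R were the next receptor genes by the level of the most-read entry. The most-read FGFR2 entry is a scaffold entry of 393 bases with 40, 23 and 37 reads in the MSCs and 10, 22 and 56 in the EVs. The EVs of pigs 1 and 3 were its lowest and highest libraries and the log2 fold change was −0.050 (95% interval −1.62 to 1.52). A longer FGFR2 entry of 1927 bases had only 84 reads and a log2 fold change of 0.73. The level and direction of FGFR2 thus depend on the entry. IGF2R, which clears IGF2 and sorts lysosomal enzymes, had 70, 736 and 97 reads in the MSCs and 105, 531 and 79 in the EVs. Both libraries of pig 2 stood above the other 4, and the log2 fold change was −0.52 (95% interval −2.95 to 1.91). Another IGF2R entry with 37 reads covers 0.987 of the chosen one on the same strand.

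The receptor for IGF1 and that for HGF were low in these counts. IGF1R had 46 to 67 reads in the MSCs and 61 to 118 in the EVs, with a log2 fold change of 0.52 (95% interval −0.29 to 1.33). An unnamed Ensembl entry with 11527 reads spans the whole IGF1R entry on the same strand, at 1644, 2125 and 1924 reads in the MSCs and 1581, 2768 and 1485 in the EVs (log2 fold change 0.018), so that the IGF1R count is uncertain. MET had 61, 7 and 61 reads in the MSCs and 29, 12 and 16 in the EVs. The MSCs of pigs 1 and 3 were high and the MSC of pig 2 the lowest library of all, with a log2 fold change of −1.08 (95% interval −2.81 to 0.65). Without the MSC of pig 2 it was −1.57 and passed the unadjusted thresholds, and without the MSC of pig 3 it was −0.70. A second MET entry lies over it on the opposite strand with 10 reads.

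The receptors of vessel-forming ligands were low in MSCs and EVs alike. FLT1, the VEGF-A receptor VEGFR1, had 56, 29 and 149 reads in the MSCs and 103, 66 and 111 in the EVs (log2 fold change 0.34, 95% interval −1.05 to 1.73). Without the MSC of pig 3 it was 1.23 and passed the unadjusted thresholds, and without the MSC of pig 2 it was −0.023. FLT4, the VEGF-C receptor, had 3 to 12 reads a library. KDR, the main signalling receptor of VEGF-A on endothelium, had 1 read in all, in the EV of pig 2, and TEK, the angiopoietin receptor, had 5 reads in the 6 libraries together. EGFR had 7 reads and FGFR4 had 48, both under the filter, and FGFR3 had 8 to 29 reads in a library. A further EGFR entry, at 0 reads, covers 0.999 of the chosen one on the same strand, so that the EGFR count is uncertain. A count of 0 allows up to 3 reads, which is 0.244 to 0.288 CPM by library total. Such limits cover counting error only.

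IGF binding proteins carried most of the reads of the gene set. IGFBP5 and IGFBP4 had mean levels of 806 and 733 RPKM and changed places from library to library, with IGFBP5 above IGFBP4 in 2 of 6. Both lay above IGFBP2 (123 RPKM), IGFBP4 doing so in 6 of 6 libraries. The 57 genes together took 1.22% to 2.53% of the reads counted on genes in a library, and the 8 IGF binding proteins took 0.855% to 1.90%. A second IGFBP5 entry of 968 bases held 80809 reads (log2 fold change 0.51). It is not counted in these levels and shares, which thus depend on the entry chosen.

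IGFBP5, on chromosome 15 (131680310 to 131684630, minus strand), encodes a matrix-bound IGF carrier. It had 41099, 115695 and 78384 reads in the MSCs and 126824, 132035 and 48603 in the EVs. The MSC of pig 1 and the EV of pig 3 were its lowest libraries, and the log2 ratio was 1.75 in pig 1, −0.10 in pig 2 and −0.44 in pig 3. Its log2 fold change was 0.31 (95% interval −0.98 to 1.60). IGFBP4, on chromosome 12 (22275243 to 22290067, minus strand), encodes a carrier that is released from IGFs when PAPPA cleaves it. Its reads were 64197, 112780 and 66027 in the MSCs and 54539, 63553 and 42618 in the EVs. Every EV library lay below every MSC library and the exact permutation p was 0.1, while the log2 fold change was −0.62 (95% interval −1.59 to 0.34, edgeR adjusted p = 0.449). Without the MSC of pig 2 it was −0.19.

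IGFBP2, a carrier made by liver and fat cell precursors, had 1054, 5152 and 2203 reads in the MSCs and 528, 13504 and 7831 in the EVs. The EV was below its MSC in pig 1 and above it in pigs 2 and 3, with log2 ratios of −0.87, 1.10 and 2.08. Over the groups this was a log2 fold change of 1.31 (95% interval −1.08 to 3.71, edgeR adjusted p = 0.513). Without the EV of pig 1 it was 1.86 and passed the unadjusted thresholds, and without the EV of pig 2 it was 0.73. IGFBP6, a carrier with a preference for IGF2, had 18, 21 and 23 reads in the MSCs and 14, 15 and 15 in the EVs, with a log2 fold change of −0.47 (95% interval −1.43 to 0.49). IGFBP3, the major carrier of plasma, did not pass the filter, with 1, 21 and 6 reads in the MSCs and 4, 6 and 146 in the EVs. A single library, the EV of pig 3, held most of its 184 reads.

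The angiopoietin-like genes were read mainly as ANGPTL2. This gene, which encodes a secreted inflammatory and vessel-acting protein of fat, had a mean level of 123 RPKM, with 8501, 43196 and 15488 reads in the MSCs and 9990, 21442 and 18511 in the EVs. The MSC of pig 2 was the highest library. Its log2 fold change was −0.48 (95% interval −2.03 to 1.08), and it was 0.57 without that library. ANGPTL4, an inhibitor of lipoprotein lipase that responds to fasting and hypoxia, had 378, 1160 and 139 reads in the MSCs and 538, 639 and 368 in the EVs. The MSC libraries were both the highest and the lowest, and the log2 fold change was −0.20 (95% interval −1.83 to 1.43) but 0.38 in the fit blocked by pig and 1.10 without the MSC of pig 2, where it passed the unadjusted thresholds.

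Direction within pigs was read for all 31 members tested, in TMM-normalized CPM. The EV exceeded the MSC in all 3 pigs for 8 members (25.8%, against 22.6% of all entries), which were FGF1, FGF10, HGF, IGF1, ANGPT2, PDGFRA, IGF1R and FGFR1OP2. It lay below the MSC in all 3 pigs for PDGFA, IGFBP4 and IGFBP6, 9.68% of the members against 24.2% of all entries. Every EV library lay above every MSC library for ANGPT2 and FGFR1OP2, 6.45% of the members against 14.3%, and below for PDGFA and IGFBP4, 6.45% against 13.6%. In the deposited RPKM the groups overlapped for ANGPT2 and FGFR1OP2, and for ANGPT2 the EV of pig 3 lay below its MSC.

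Several of these genes differed between the cultures of the 3 pigs. The edgeR fit with the pig as a block was used to test for the pig over all entries. This test was chosen after the values had been seen. It passed adjusted p under 0.05 for 3 of the 31 members (9.68%), against 1.96% of all entries, and unadjusted p under 0.05 for 12 (38.7%), against 11.3%. With 1 culture for each pig, the animal and its culture cannot be told apart. The replicates of a pig in this test were its MSC and its EV library, from the same culture. Its p thus measures no spread between cultures of a pig.

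PDGFD, the PDGFR-beta ligand, had 321, 35 and 742 reads in the MSCs of pigs 1, 2 and 3 and 122, 47 and 650 in their EVs. Pig 3 was high and pig 2 low in MSC and EV alike, by log2 differences from pig 1 of 1.95 and −2.24 (adjusted edgeR p of the pig term 0.00696), whereas the EV over MSC log2 fold change was −0.20 (95% interval −2.92 to 2.52). IGF2R was higher in pig 2 than in pig 1 by 2.96 on the log2 scale (adjusted edgeR p of the pig term 0.0103), as its reads above show. PDGFRL, a PDGF receptor-like protein without a kinase domain, had 46, 63 and 262 reads in the MSCs and 51, 26 and 383 in the EVs. Pig 3 was higher than pig 1 by 2.96 on the log2 scale (adjusted edgeR p of the pig term 0.0268). FGF1 and IGFBP2 came next, with adjusted edgeR p of the pig term of 0.0505 and 0.0684, and had their lowest MSC and EV levels in pig 1.

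**Figure D4:**
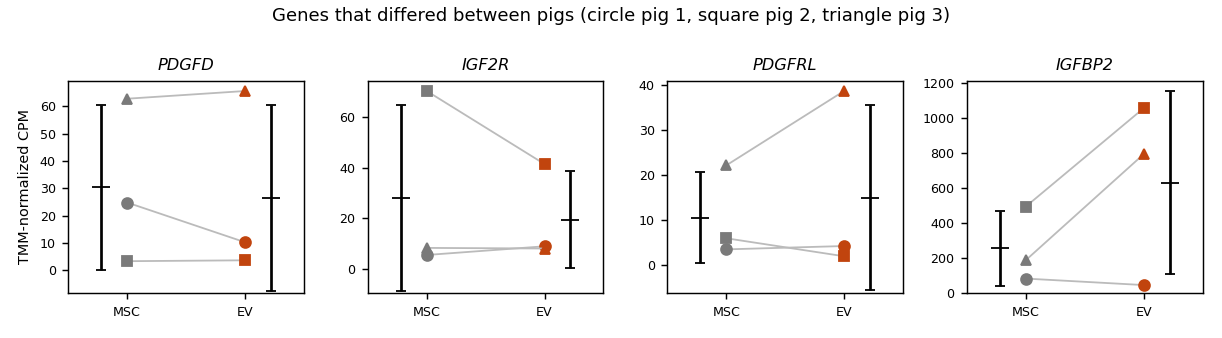
The vertical axes give TMM-normalized CPM of PDGFD, IGF2R, PDGFRL and IGFBP2 in MSC (grey) and EV (orange), with a line joining the libraries of each pig and bars for the mean ± SD of 3 libraries. Pig 3 was highest in MSC and EV for PDGFD and PDGFRL, pig 2 for IGF2R, and pig 1 was lowest for IGFBP2, which did not pass the adjusted threshold.

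The 26 genes not tested include 12 with 0 reads in all 6 libraries. Among these were the ligands AREG, FGF4, FGF16, FGF17, FGF20, FGF21 and VEGFD, the angiopoietin-like genes ANGPTL1, ANGPTL5 and ANGPTL7, and IGFBP7. IGFBP1 and KDR had 1 read each. The count of 0 is a property of the entry for several of them. In 22 of the 57 genes another entry of the table covers at least 0.9 of the chosen entry, and 7 of these 22 were at 0, against 5 of the other 35. ANGPTL7 lies within MTOR (10599 reads), FGF21 within GALNS (14423 reads) and ANGPTL1 within RALGPS2 (846 reads), each on the opposite strand. FGF16 and VEGFD are annotated on X, and none of the 1170 entries that the table places on X, Y or MT in this spelling had a read. Whether reads were lost between overlapping entries was not tested, and a level of 0 is therefore a statement on the entry, not on the transcript. Levels of the covered genes with reads, among them VEGFA, IGF1, IGFBP4 and ANGPTL4, carry the same limit. Low but present genes of the ligand list, which was drawn up by name, were FGF19 (4, 21 and 3 reads in the MSCs and 0, 1 and 3 in the EVs), FGF9 (20 reads in all), FGF14 (17), FGF18 (12) and ANGPT4 (22). ANGPTL6 (14) and IGFBPL1 (7) were likewise under the filter.

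Other genes of the same pathways were taken from 7 lists of 113 genes, of which 66 could be tested. By the unadjusted thresholds 5 of the 66 (7.58%) were higher in EVs and 1 (1.52%) was lower, against 5.55% and 3.57% of all entries, and 12 (18.2%) had an unadjusted p under 0.05, against 16.0%. With the pig as a block 8 (12.1%) were higher and 2 (3.03%) lower, against 8.01% and 5.17%, the additional genes being KITLG, FRS2 and CBL among the higher and SPRY1 among the lower. After adjustment 0 passed in edgeR with or without the block. DESeq2 called 2 higher (3.03%, against 2.09%), INSR and SOS2, and 1 lower (1.52%, against 1.5%), SDC2, while KLB, STC2 and SPINT2 had no adjusted value there. Every EV library lay above every MSC library for 11 of the 66 and below for 8, against 14.3% and 13.6% of all entries. The groups of the single genes given below are to be read beside these shares. The median log2 fold change was 0.027, against −0.016 over all entries. The lists cover further ligands, coreceptors, enzymes that process ligands, adaptors and kinases, feedback inhibitors, the hypoxia axis that controls VEGFA, and angiogenesis inhibitors.

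Of 10 coreceptors and partner receptors tested, 1 was higher and 1 lower (10.0% each, against 5.55% and 3.57% of all entries). SDC2, a heparan sulfate proteoglycan that presents FGF and VEGF to their receptors, had 2416, 2718 and 3833 reads in the MSCs and 812, 1103 and 1335 in the EVs. The groups did not overlap, and the log2 fold change was −1.41, with an adjusted p of 0.219 in edgeR and 0.0138 in DESeq2. INSR, the insulin receptor, had 42, 26 and 14 reads in the MSCs and 84, 173 and 74 in the EVs. Every EV library lay above every MSC library, with a log2 fold change of 2.01 and an adjusted p of 0.219 in edgeR and 0.00911 in DESeq2. Both calls were kept in each fit without a library, by the unadjusted thresholds. NRP1, a coreceptor of VEGF-A, was the most-read gene of this list, with 7107, 3370 and 5160 reads in the MSCs and 8945, 7590 and 11015 in the EVs. Its log2 fold change of 0.91 (edgeR adjusted p = 0.278) was under a fold of 2, and its groups did not overlap after scaling.

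Of 21 adaptors and kinases tested 3 were higher (14.3%, against 5.55% of all entries) and 0 lower (against 3.57%). SOS2, a guanine nucleotide exchange factor that activates RAS, had 202, 57 and 159 reads in the MSCs and 343, 451 and 336 in the EVs (log2 fold change 1.50, adjusted p = 0.222 in edgeR and 0.0196 in DESeq2). Its paralog SOS1 had 284, 57 and 193 reads in the MSCs and 344, 390 and 337 in the EVs (log2 fold change 1.09, edgeR adjusted p = 0.312). PIK3CA, the catalytic subunit of PI3 kinase, had 422, 175 and 319 reads in the MSCs and 500, 711 and 623 in the EVs (log2 fold change 1.07, edgeR adjusted p = 0.237). For all 3 genes the MSC of pig 2 was the lowest library and the groups did not overlap, and without the MSC of pig 2 the log2 fold changes were 1.17, 0.70 and 0.84 in the same order. SOS2 kept its unadjusted call without each library in turn, PIK3CA lost it without the MSC of pig 2 or the EV of pig 3, and SOS1 kept it only without the MSC of pig 1. SHC1, an adaptor with the most reads of this list, had a log2 fold change of −0.12.

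In the hypoxia axis 1 of 5 genes tested was higher (against 5.55% of all entries) and 0 were lower (against 3.57%). EGLN3, a prolyl hydroxylase that marks HIF proteins for decay and is itself induced by hypoxia, had 1, 24 and 21 reads in the MSCs and 14, 72 and 313 in the EVs. The groups overlapped, the EV of pig 3 was far above the rest, and the log2 fold change was 3.21 (edgeR adjusted p = 0.295). Without the EV of pig 3 it was 1.31 and not past the unadjusted thresholds, which were also missed without any 1 of the MSC libraries. EPAS1, the HIF-2 alpha subunit, was the most-read gene of the list, with 9754, 11514 and 9661 reads in the MSCs and 6173, 6488 and 3356 in the EVs. Every EV library lay below every MSC library, and its log2 fold change of −0.97 (edgeR adjusted p = 0.247) fell just short of a fold of 2. HIF1A was listed at 0 in an entry that another entry covers.

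In the remaining 4 lists 0 genes passed the unadjusted thresholds in edgeR without a block in either direction, and HDGF and FURIN alone had an unadjusted p under 0.05. With the pig as a block KITLG, the ligand of KIT, was higher at a log2 fold change of 1.59, as was CBL, a ubiquitin ligase that ends receptor signalling, at 1.60, and SPRY1, an inhibitor of RAS signalling, was lower at −1.08, by the unadjusted thresholds. Of the 5 further ligands tested, HDGF, a nuclear-targeted growth factor, had the most reads, with 5622, 4750 and 4771 in the MSCs and 3668, 2672 and 2470 in the EVs (log2 fold change −0.75, edgeR adjusted p = 0.257), and its groups did not overlap. Of the 10 ligand-processing genes HTRA1, a secreted protease that cleaves IGF binding proteins, had the most reads and a log2 fold change of 0.081. DUSP4, a MAP kinase phosphatase, had the most reads of the 9 feedback inhibitors and a log2 fold change of 0.67 (edgeR adjusted p = 0.316). THBS2, a thrombospondin that restrains vessel growth, led the 6 angiogenesis inhibitors with a mean level of 198 RPKM, above that of VEGFA, and a log2 fold change of −0.17.

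**Figure D5:**
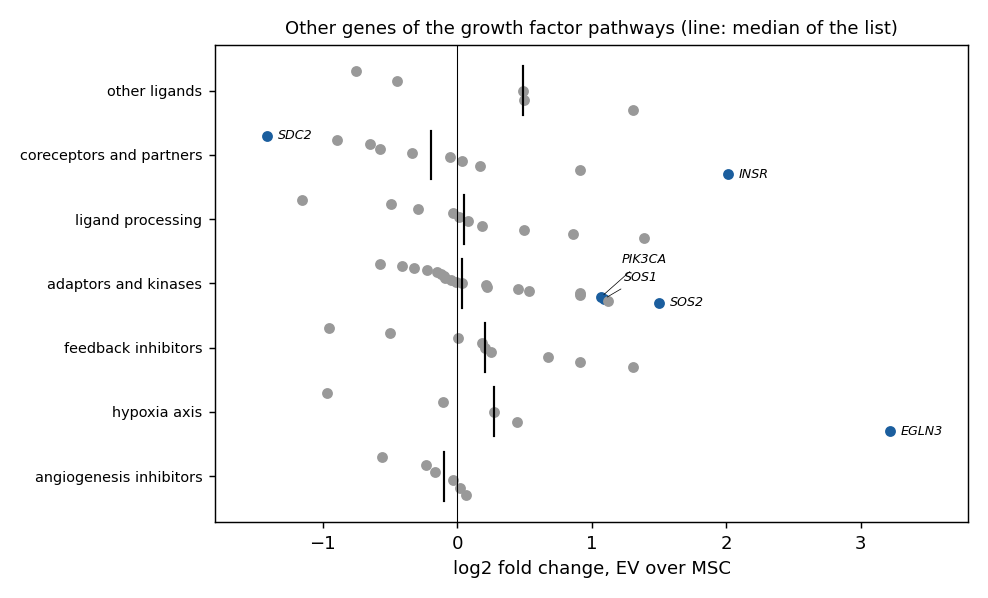
The horizontal axis gives the log2 fold change of EV over MSC for the 66 pathway genes tested, a point for each gene, in 7 lists with the list median as a vertical line. Blue points passed a fold of 2 with an unadjusted p under 0.05, which were SDC2 below 0 and INSR, SOS1, SOS2, PIK3CA and EGLN3 above 0.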

How the data were processed

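mRNA libraries of MSCs and EVs from 3 pigs were analysed, and the small-RNA tables were not used here. The authors aligned reads with TopHat to susScr3 (build per the submitters' processing notes) and counted them in the MAPRSeq workflow, and they deposited raw counts per gene entry beside RPKM. The study's methods name featureCounts as the counter, whereas the submitters' processing notes list HTSeq without a role. The labels name a stranded TruSeq method and the study's methods a TruSeq v2 kit. The strand setting of the counting is not given in the sources used here, so opposite-strand overlaps are uncertain. Of 29661 entries, 3 were shifted by a column and left out. Symbols came from the table for 4336 entries and from the pig gene table for 11804 of the 25322 Ensembl identifiers, and the most-read entry stood for a symbol with several (25 of the 57 genes).

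Counts were fitted over the whole table with edgeR 4.0.16 in R 4.3.3 (TMM, filterByExpr, quasi-likelihood test, Benjamini-Hochberg adjustment), without the pig as a block, since the study's methods name no pairing in their test. Alternatives were other scaling, no filter, DESeq2 1.42.0, limma 3.58.1 on log2(RPKM + 1) and log2(RPKM + 0.1), the pig as a block, summed entries, covered entries left out, and each library left out. The edgeR fit, with and without the block, was tested on simulated counts that held no pig effect. The other alternatives were not tested in this way. The libraries were paired by replicate number, which was taken as the pig. Deviations from the group means correlated at 0.251, 0.384 and 0.408 within these pairs and at −0.364 to −0.0385 between them. Since each group was centred on its own mean, positive values within pairs force negative ones between them. The negative values thus add no separate information on the pairing. Described with values were members past the thresholds, the 5 highest ligands, receptors and IGF binding proteins by mean RPKM, and members with at most 3 reads. From each pathway list the genes past the thresholds and the most-read gene were taken. PDGFD, PDGFRL, IGF1, IGF2, NRG1, MET and the other members given with reads were added as members that show the spread. The members and lists were chosen with earlier results of these data known. The test of the pig term was added after the values were seen.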

Additional observations from a re-analysis of the deposited data

How the results depend on the processing

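Under most alternatives the log2 fold changes of the 31 members kept their direction and their side of the unadjusted thresholds. The count of members higher in EVs was 0 with limma on log2(RPKM + 1) and log2(RPKM + 0.1), where FGF1 had log2 fold changes of 0.54 and 1.49. The count lower was 2 with no filter on low counts, through FGF19. With the pig as a replicate block the counts stayed at 1 higher, 1 lower and 0 after adjustment, with medians of 0.45 for the ligands, 0.43 for the receptors and −0.038 for the IGF binding proteins. With limma on log2(RPKM + 1) the medians were 0.39, 0.092 and 0.16 in the same order, and with no filter the ligand median was 0.29 and that of the IGF binding proteins 0.31.

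The direction turned for ANGPTL4 (0.24 with limma on log2(RPKM + 1), 0.38 with log2(RPKM + 0.1) and 0.38 with the block), for PDGFRL (−0.11 with log2(RPKM + 0.1) and −0.090 with the block) and for FGFR2 (0.16 with the entries of a symbol summed). The cause was not tested. The block changed no other call or direction of a member.

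Leaving out each library in turn gave 0 to 2 members higher, 1 to 2 lower and 0 after adjustment, with medians of 0.36 to 0.69 for the ligands, 0.069 to 0.48 for the receptors and −0.33 to 0.31 for the IGF binding proteins. The direction of single members turned in some of these fits, with ranges of −1.13 to 0.38 for FGFR2, −0.16 to 0.98 for FGFR3, −0.035 to 0.81 for IGFBP5, −0.25 to 0.77 for NRG1, −0.068 to 0.65 for ANGPT1, −0.90 to 0.57 for ANGPTL2, −0.67 to 1.10 for ANGPTL4, −0.023 to 1.23 for FLT1, −1.75 to 1.51 for IGF2R, −2.12 to 0.91 for PDGFD, −0.45 to 0.11 for HBEGF, −1.74 to 1.64 for PDGFRL and −0.37 to 1.45 for VEGFC. The count higher was 0 without the EV of pig 2, and the count lower was 2 without the MSC of pig 2. No median of the IGF binding proteins could be given without covered entries, since none of those tested was left. With 3 libraries a group and a common biological coefficient of variation of 0.419, the intervals of most members span a fold of 2.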
